A study of Mus musculus with 6 samples.

Results

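The genes described here are 9 transcription factors of the oligodendrocyte lineage, Olig1, Olig2, Sox10, Sox8, Myrf, Nkx2-2, Nkx6-2, Tcf7l2 and Zfp488. They were chosen by name and are read by 15 of the 56605 non-control probes of the array, 4 of the 9 genes by more than 1 probe. Oligodendrocytes, the myelinating glia of the brain, are specified and matured by a network of such factors. OLIG2 and its paralogue OLIG1 act from the progenitor onward, SOX10 and SOX8 follow, and MYRF together with SOX10 switches on the genes of myelin. NKX2-2, NKX6-2, ZFP488 and TCF7L2 act around the passage from precursor to myelinating cell, and TCF7L2 is also made by neurons of the thalamus and midbrain.

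Total RNA came from a dissection labelled brainstem and cerebellum, taken from mice aged 16 weeks. There were 3 samples of genotype MSA Transgenic and 3 of genotype wild type, all from a mixed background of C57BL/6, 129 and C3H, and each sample was read on 1 single-colour mouse array. The labels do not spell out MSA, and they give neither the transgene, the promoter that drives it, the number of founder lines nor the sex of the mice. No label says that each sample is its own animal, and the p-values below then cover only how these samples vary, which may be technical. In a bulk tissue, fewer cells of a type and less RNA per cell cannot be told apart.

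Slide 1 held only wild-type replicate 1, and slide 2 held the other 5 arrays. The 75th percentile of signal was 591.9 to 609.2 intensity units on the transgenic arrays, against 405.7 on wild-type replicate 1 and 535.0 and 562.4 on the other two wild-type arrays. Across genes wild-type replicate 1 correlated at 0.974 to 0.978 with the other arrays, which correlated at 0.991 to 0.996 with one another. Results are therefore also given within slide 2, which leaves that array out and sets 3 transgenic against 2 wild-type samples. Levels below are log2 signals relative to the 75th percentile of the same array, so a level of 0 is that percentile. Levels of different probes are not comparable, because probes bind with different strength. A difference is the transgenic minus the wild-type mean level. All 15 probes passed the filter on dim probes, and 14 of them were well above background on all 6 arrays.

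The sequences that carry most of what follows are the probes of Tcf7l2, Olig2, Nkx2-2 and Myrf, because the values below set several probes of a gene, or a gene's only probe, side by side across genotypes. Probes are numbered by their start in their annotated transcript. They are shown 5′ to 3′ in the sense of the transcript with their position on mm9, whole or as their leading 30 bases.
Tcf7l2 probe 1, chr19:55817272-55817331 (+): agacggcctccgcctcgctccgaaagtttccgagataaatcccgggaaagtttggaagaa
Tcf7l2 probe 2, chr19:55982975-55983034 (+): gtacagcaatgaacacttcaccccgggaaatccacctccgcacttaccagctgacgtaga
Tcf7l2 probe 3, chr19:55994029-55994088 (+): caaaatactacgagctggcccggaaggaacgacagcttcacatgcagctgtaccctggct
Tcf7l2 probe 4, chr19:56007586-56007645 (+), leading 30 bases: gatttgtatgtagttttaatgtcacctata
Olig2, chr16:91228470-91228529 (+), leading 30 bases: aagaacaacatcaaaaagttgctgtgaata
Nkx2-2 probe 1, chr2:147003307-147003366 (-), leading 30 bases: cacaattgaagcatatatttccacctcttc
Nkx2-2 probe 2, chr2:147008888-147008912 (-), leading 30 bases: tacacgttctgacaactggtggcaaatttc
Myrf probe 1, chr19:10300508-10300567 (-), leading 30 bases: gttgacctctgggcttgagtttgttctttt
Myrf probe 2, chr19:10284933-10285125 (-): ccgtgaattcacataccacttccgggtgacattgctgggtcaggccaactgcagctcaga

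The annotated interval of Myrf probe 2 spans 193 bases of genome for 60 bases of probe, and that of Nkx2-2 probe 2 gives only 25. The files name the transcripts a probe matches but not their coding limits.

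The series design asks how expression in transgenic brain compares with wild-type brain at this age. None of the 9 factors passed the test, which is limma with Benjamini-Hochberg adjustment over 24932 genes and an adjusted p threshold of 0.05. Over all genes 0.0441% passed (0.0361% with transgenic higher and 0.00802% with transgenic lower). Tcf7l2, Olig2 and Myrf had transgenic levels above every wild-type level, Nkx2-2 had transgenic levels below every wild-type level, and the groups of the other 5 overlapped. Such a lack of overlap was seen in 14.9% of all genes (7.4% with transgenic higher, 7.5% with transgenic lower). An unadjusted limma p under 0.05 was reached by 3 of the 9, all with transgenic higher, and by 5.86% of all genes (3.15% with transgenic higher). Over the 9 factors the median log2 difference was 0.06, with 6 above 0 and 3 below. The median over all genes was 0.00, with 49.9% above 0.

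**Figure D1:**
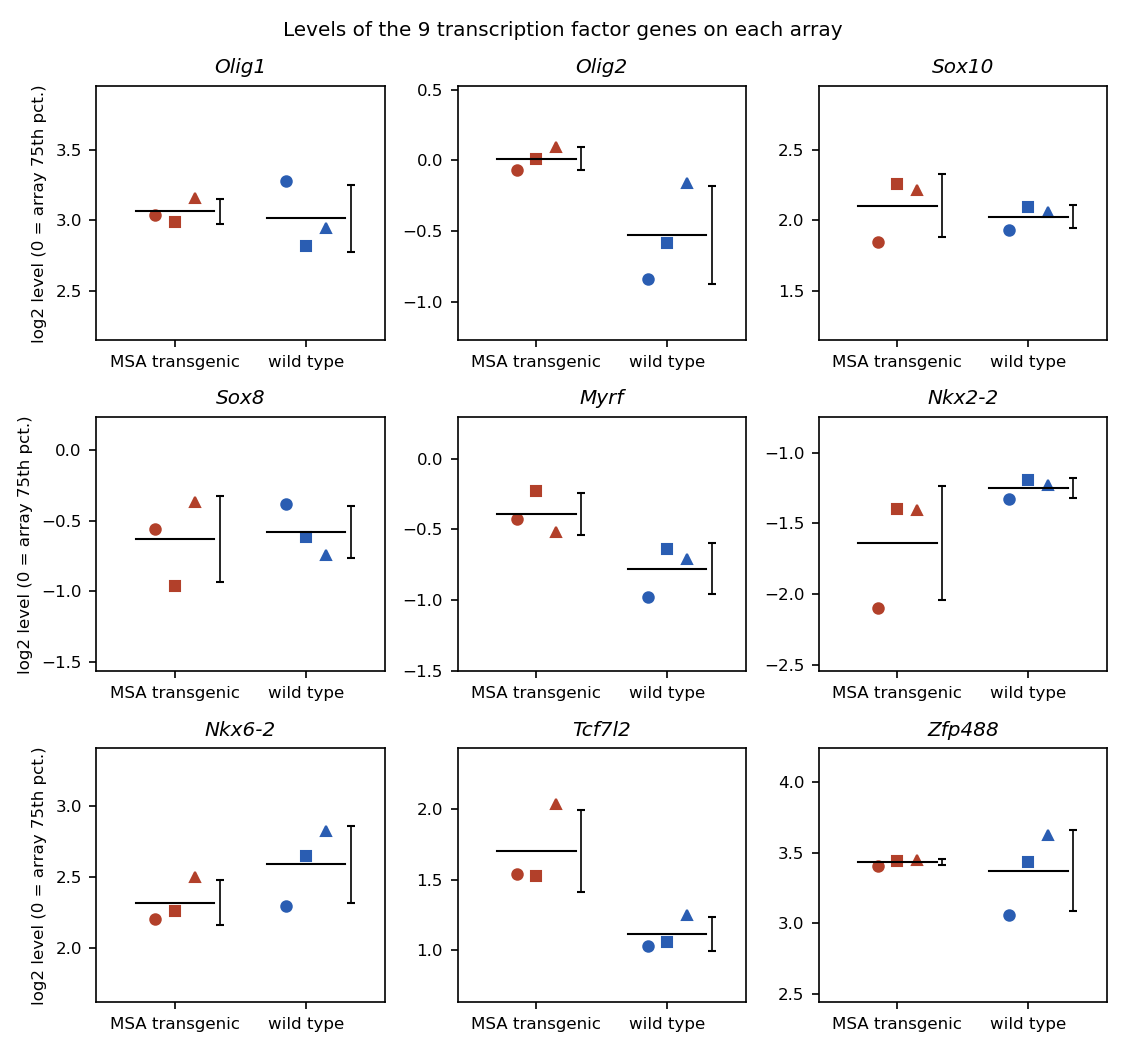
Log2 level of each gene (0 is the 75th percentile of the array) on the 3 MSA transgenic arrays (red, left) and the 3 wild-type arrays (blue, right); circles, squares and triangles are replicates 1, 2 and 3 of each genotype, lines are means and bars are SDs. All panels span the same range on the y axis; the groups of Olig2, Myrf, Tcf7l2 and Nkx2-2 do not overlap.

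Olig2 encodes the basic helix-loop-helix factor that specifies progenitors of oligodendrocytes and motor neurons and stays on through the lineage. It had levels of -0.07, 0.01 and 0.09 in the transgenic samples, against -0.84, -0.58 and -0.16 in the wild-type samples. The transgenic values were tightly grouped, while the wild-type values spread over 0.68 and their highest came close to the lowest transgenic value. The log2 difference was 0.54 ± 0.18 (SE, n = 3 per genotype, as for all differences below), or 1.45-fold, with a limma adjusted p of 0.783. Within slide 2 it was 0.38 ± 0.15 (adjusted p = 0.562), since wild-type replicate 1 held the lowest value.

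Olig1 lies 43.3 kb from Olig2 on chromosome 16, measured between their probes, and its factor promotes myelination and its repair. Its levels were 3.04, 2.99 and 3.16 in the transgenic samples, against 3.28, 2.82 and 2.94 in the wild-type samples. Wild-type replicate 1 was the highest of all 6 arrays here, whereas it was the lowest for Olig2. Its log2 difference of 0.05 ± 0.14 had a 95% interval of -0.30 to 0.39 (limma adjusted p = 0.926), so a modest difference in either direction is within its error. Within slide 2 it was 0.18 ± 0.09 (adjusted p = 0.621).

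Whether the neighbouring paralogues differed from one another was tested on the log2 ratio of Olig2 to Olig1 within each array. The ratio was -3.11, -2.98 and -3.07 in the transgenic samples, against -4.12, -3.40 and -3.10 in the wild-type samples. The groups overlapped narrowly, and the difference of 0.49 had an exact permutation p of 0.20 (2-sided), or 0.40 after Benjamini-Hochberg adjustment over 2 pairs. The smallest p that 3 against 3 samples allow is 0.10. Within slide 2, an alternative added after the values were seen, the difference was 0.20, since wild-type replicate 1 held the lowest ratio. For the other pair, the ratio of Sox10 to Sox8 differed by 0.13 (exact permutation p = 0.80), and by -0.01 within slide 2. Both pairs were chosen after the values were seen.

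Sox10 encodes the HMG-box factor that oligodendrocytes need to differentiate and that Schwann cells of peripheral nerve share. It had levels of 1.85, 2.25 and 2.21 in the transgenic samples, against 1.93, 2.09 and 2.05 in the wild-type samples. The wild-type values lay inside the transgenic range. Sox10 differed by 0.08 ± 0.13 (log2), with a 95% interval of -0.25 to 0.41 (limma adjusted p = 0.879), and 0.03 within slide 2.

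Sox8, a close relative of Sox10 with an overlapping role, was read by a pair of probes 2.7 kb apart on chromosome 17. Probe 2, the brighter, had levels of -0.56, -0.96 and -0.37 in the transgenic samples, against -0.38, -0.61 and -0.74 in the wild-type samples. Probe 1 had -1.90, -2.27 and -1.85 in the transgenic samples, against -1.90, -2.30 and -2.18 in the wild-type samples. The groups overlapped on both, and on both transgenic replicate 2 was the lowest of its genotype. Log2 differences were -0.05 ± 0.18 on probe 2 (95% interval -0.50 to 0.40) and 0.13 ± 0.16 on probe 1, so neither gave a settled direction.

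Myrf encodes a membrane-bound protein that cuts itself to release a nuclear fragment, which turns on myelin genes and is needed to keep them on. Probe 1 had levels of -0.42, -0.23 and -0.52 in the transgenic samples, against -0.98, -0.64 and -0.71 in the wild-type samples. Every transgenic value lay above every wild-type value, by a margin of less than the range within either genotype. Myrf differed by 0.39 ± 0.13 (log2), or 1.31-fold (limma adjusted p = 0.783), and 0.28 ± 0.11 within slide 2 (adjusted p = 0.562).

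Probe 1 of Myrf is annotated to the transcript ENSMUST00000189439 and not to the RefSeq transcript NM_001033481, which probe 2 reads 15.4 kb away. Probe 2 gave only 15.8, 13.1 and 22.4 intensity units in the transgenic samples, against 9.2, 7.6 and 6.9 in the wild-type samples. It was well above background on 3 transgenic arrays and on 0 wild-type arrays, so no fold is given. Its mean level was -5.17 in the transgenic samples and -5.98 in the wild-type samples as measured. The measured groups overlapped, and the probe passed the filter on dim probes through the transgenic arrays alone. With normexp background correction its log2 difference was -0.04, against 0.30 for probe 1. All readings of probe 2 lie under the offset of 50 intensity units in that correction, which shrinks differences of dim probes by itself. The value of -0.04 therefore does not show whether probe 2 differed.

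Nkx2-2 encodes a homeodomain repressor that marks ventral progenitors and oligodendrocytes about to differentiate, and in the brainstem also serotonergic neurons. Probe 2, the brighter, had levels of -2.10, -1.40 and -1.41 in the transgenic samples, against -1.33, -1.19 and -1.23 in the wild-type samples. Transgenic replicate 1 stood far below the rest, and the other two transgenic values lay just under the lowest wild-type value. The log2 difference was -0.38 ± 0.21, or 0.766-fold (limma adjusted p = 0.817), and -0.42 ± 0.24 within slide 2 (adjusted p = 0.671). Leaving out 1 sample gave -0.50 to -0.15, with -0.15 without transgenic replicate 1.

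Nkx2-2 probe 1 lies 5.5 kb away and is annotated to another RefSeq transcript of the gene. It had levels of -2.78, -2.83 and -2.90 in the transgenic samples, against -2.42, -2.23 and -2.34 in the wild-type samples. Both genotypes were tight here, with ranges of 0.12 and 0.19, and the gap between them was wider than either range. In the fit of all 38463 tested probes its log2 difference was -0.50 ± 0.09, or 0.705-fold, with the lowest limma adjusted p of the 15 probes (adjusted p = 0.318). It was -0.55 within slide 2 and -0.39 with normexp. The probe was dim, with 88.5, 83.4 and 80.8 intensity units in the transgenic samples, against 75.8, 119.6 and 105.3 in the wild-type samples. The gene's reported value comes from probe 2, because the brightest tested probe was kept for each gene.

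Nkx6-2 encodes a homeodomain factor of mature oligodendrocytes that is involved in the contact between myelin and axon. Its levels were 2.20, 2.26 and 2.50 in the transgenic samples, against 2.29, 2.65 and 2.82 in the wild-type samples. The groups overlapped through wild-type replicate 1, the array on slide 1. Nkx6-2 differed by -0.27 ± 0.17 (log2), or 0.829-fold (limma adjusted p = 0.817), -0.42 ± 0.12 without that array (adjusted p = 0.476) and -0.15 without wild-type replicate 3.

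Tcf7l2 encodes an HMG-box effector of Wnt signalling that is present for a short time in premyelinating oligodendrocytes. Probe 4, the brightest, had levels of 1.54, 1.53 and 2.04 in the transgenic samples, against 1.03, 1.06 and 1.25 in the wild-type samples. In intensity units these were 1774, 1704 and 2476 in the transgenic samples, against 828, 1174 and 1275 in the wild-type samples. Every transgenic value lay above every wild-type value, and transgenic replicate 3 was highest. Its log2 difference was 0.59 ± 0.17 (limma adjusted p = 0.651). Within slide 2 it was 0.54 ± 0.19 (adjusted p = 0.535), with normexp it was 0.59, and without transgenic replicate 3 it was 0.42.

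The 4 Tcf7l2 probes span 190.4 kb of chromosome 19. Probe 3 had levels of -2.11, -2.17 and -1.41 in the transgenic samples, against -2.36, -2.48 and -2.27 in the wild-type samples. Probe 2 had -3.23, -3.13 and -3.14 in the transgenic samples, against -3.57, -3.27 and -3.74 in the wild-type samples. On both, the groups did not overlap, and the differences were 0.47 ± 0.22 and 0.36 ± 0.14, neither called in the fit of all tested probes (limma adjusted p = 0.843 each).

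Probe 1 of Tcf7l2 did not separate the genotypes. It had levels of -2.69, -2.23 and -2.28 in the transgenic samples, against -3.56, -2.06 and -2.31 in the wild-type samples. Its difference of 0.25 ± 0.40 rested on wild-type replicate 1, and within slide 2 it was -0.21. The dimmer probes also lost most of their difference with normexp, to 0.01 for probe 1, 0.05 for probe 2 and 0.25 for probe 3. The offset of 50 intensity units in that correction shrinks differences of dim probes by itself, and probe 2 read 65.1, 67.4 and 68.7 units in the transgenic samples, against 34.1, 58.2 and 40.0 in the wild-type samples.

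**Figure D2:**
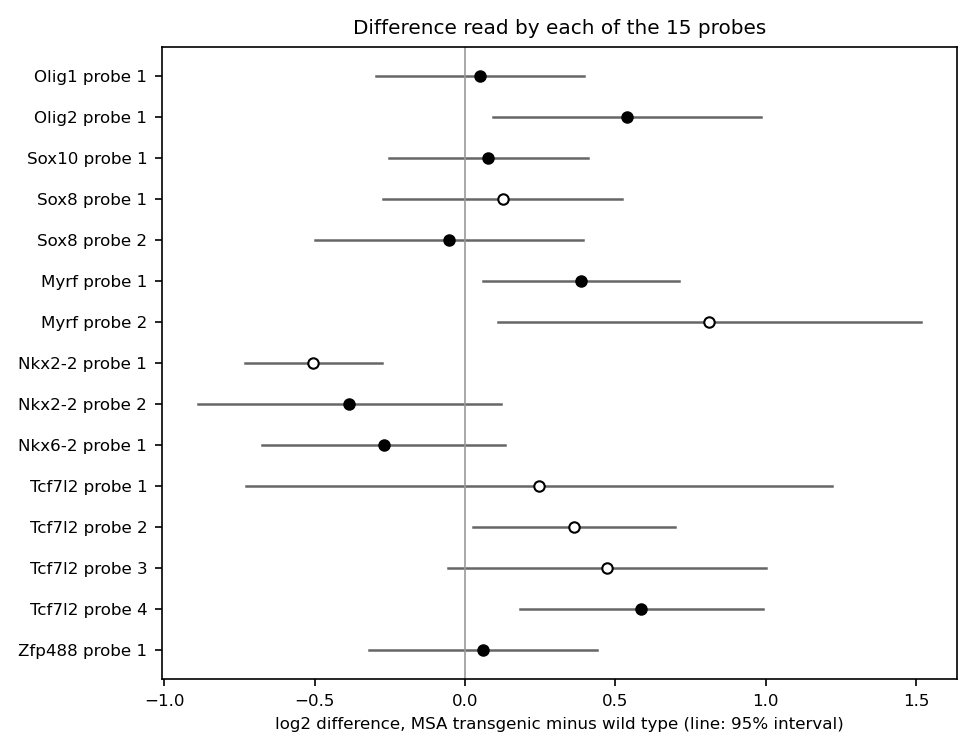
Log2 difference (x axis, MSA transgenic minus wild type) of each of the 15 probes in the fit of all tested probes, with its 95% interval, unadjusted, as a line; filled points are the probe kept for the gene. The Nkx2-2 probes lie below 0 and the Tcf7l2, Myrf and Olig2 probes above 0, while no probe passed after adjustment. Myrf probe 2 was well above background on 0 wild-type arrays and passed the filter through the transgenic arrays alone. The interval of Tcf7l2 probe 1 spans 0, and its difference was -0.21 within slide 2.

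Zfp488 encodes a zinc finger protein of oligodendrocytes that works with OLIG2. Its levels were 3.41, 3.44 and 3.45 in the transgenic samples, against 3.06, 3.44 and 3.62 in the wild-type samples. The transgenic values were nearly equal and lay inside the wild-type range. The log2 difference was 0.06 ± 0.15 (95% interval -0.32 to 0.44, limma adjusted p = 0.920), and -0.10 within slide 2. What the only Zfp488 probe reads is uncertain, because stretches of at least 20 bases covering 41 of its 60 bases also stand in the RefSeq promoter windows (GRCm38.p6) of 3 other genes. No other of the 15 probes shares such a stretch with any of the 32851 windows. The leading 30 bases, at chr14:34780551-34780609 (-) for the whole probe on mm9, are shown with the shared bases in capitals.
Zfp488: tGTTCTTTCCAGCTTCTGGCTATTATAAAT

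The promoter windows given for 6 of the 9 genes were searched for short letters taken to stand for sites of their own family members. These were CAGCTG (an E-box of OLIG factors), ACAAAG (SOX), TCAAAG (TCF) and CTGGNAC (MYRF), on both strands, in the 250 bases before each start site. In the MYRF letters N stands for any base. The SOX and TCF letters share CAAAG and differ in the base before it. Over all 32851 windows 13.0%, 16.5%, 13.8% and 16.1% held them. Of the 7 windows of these genes, Sox8 held 1 MYRF match, and the second of the pair of Tcf7l2 windows held 1 SOX match. Those of Olig2, Nkx2-2, Nkx6-2 and Zfp488 held no match, which says only that these letters are not in these windows. The Sox8 match has G at N, and whether MYRF binds that form was not tested.

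Across the 6 arrays the tested genes whose levels were most like those of Tcf7l2 were Gm5086, Lhx9 and Dazap1, with Pearson r of 0.998, 0.991 and 0.990. For Olig2 they were Cdk5r2, Vps8 and Kcnmb1, with 0.991, 0.988 and 0.986. These are descriptions over 6 arrays in which the genotypes and the slides also differ, and each is the extreme over all tested genes with a reference name.

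Because Lhx9 belongs to a list of thalamic and habenular genes, that list is set beside Tcf7l2. Lhx9, a LIM homeobox gene of these neurons, had levels of -1.31, -1.42 and -0.83 in the transgenic samples, against -1.77, -1.82 and -1.66 in the wild-type samples. Slitrk6, a neuronal adhesion gene, had -2.45, -2.26 and -1.84 in the transgenic samples, against -2.73, -2.50 and -2.64 in the wild-type samples. Tnnt1, a troponin gene that thalamic neurons express, had -0.53, -0.73 and -0.12 in the transgenic samples, against -1.11, -0.50 and -1.16 in the wild-type samples. Like Tcf7l2, all 3 were highest in transgenic replicate 3, and the Lhx9 and Slitrk6 groups did not overlap. Lhx9 was picked for its likeness to Tcf7l2 on these arrays, and Slitrk6 and Tnnt1 for a small p in this fit. The shared pattern therefore follows in part from the choice and is no separate evidence.

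The log2 differences of Lhx9, Slitrk6 and Tnnt1 were 0.56 ± 0.17, 0.44 ± 0.17 and 0.46 ± 0.24 (limma adjusted p = 0.694, 0.817 and 0.817). The list as a whole did not share them. Of its 13 tested members, 6 were above 0 and 7 below, with a median of -0.05 (0.06 within slide 2) and Tac2 at the low end with -1.02 ± 0.56. Its summed level was 72.7 to 78.9 times the 75th percentile in the transgenic samples and 78.7 to 90.0 times in the wild-type samples. Such a sum, here and below, weighs the brightest probes most. Gpr151, a marker of the habenula, was not well above background on all arrays of either genotype. The part of thalamic or midbrain tissue in the Tcf7l2 difference was not tested.

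**Figure D3:**
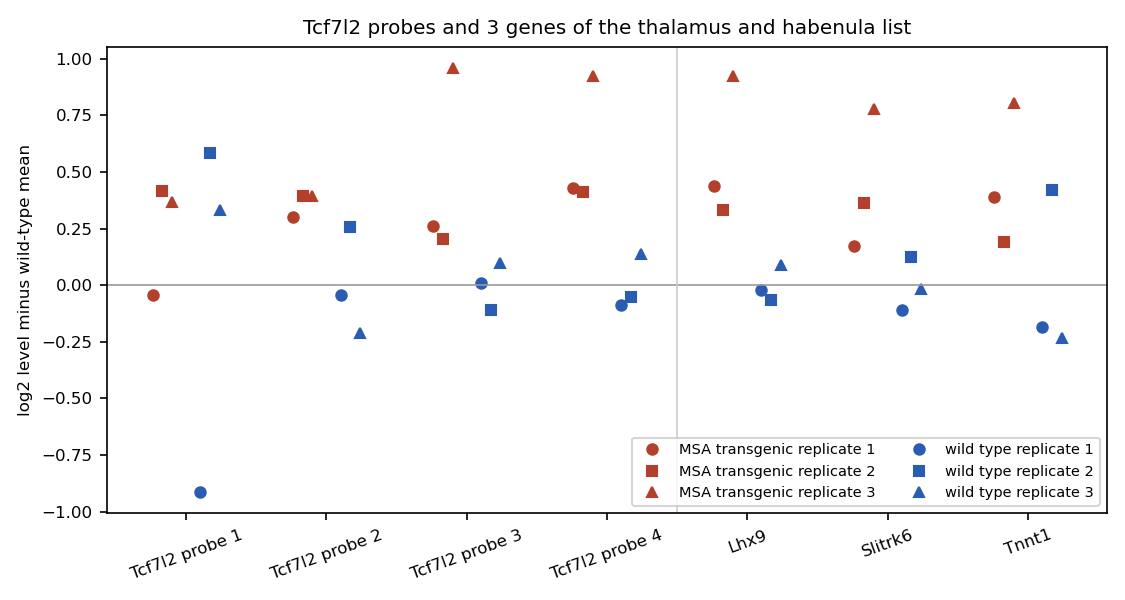
Log2 level minus the wild-type mean (y axis) on each array for the 4 Tcf7l2 probes and for Lhx9, Slitrk6 and Tnnt1; red is MSA transgenic, blue is wild type, and circles, squares and triangles are replicates 1, 2 and 3. Transgenic replicate 3 is highest for probes 3 and 4 and for the 3 other genes, and probe 1 overlaps between genotypes, with wild-type replicate 1 lowest. Tac2, named from the same list as the 3 genes and lower in transgenic samples on average, is not shown. The 3 genes were picked from these same data.

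Genes of mature oligodendrocytes and myelin, among them targets of MYRF and SOX10, lay mostly below 0. Of 39 tested, 33 were below 0 and 6 above, with a median log2 difference of -0.29 against 0.00 for all genes. The groups did not overlap for 19 with transgenic lower, against 7.5% of all genes. They did not overlap for 3 with transgenic higher, against 7.4% of all genes, so those 3 are near the share over all genes. Klk6, a secreted protease of oligodendrocytes, passed the test and was 0.239 times its wild-type level (log2 difference -2.06 ± 0.12, limma adjusted p = 0.0159). It was the only call in any list here, where 0.0441% of all genes passed. Fa2h, which makes hydroxylated myelin lipids, had -0.88 ± 0.08 (0.0565), the cytokine gene Il33 -1.23 ± 0.14 (0.0952) and the carbonic anhydrase gene Car2 -0.64 ± 0.08 (0.119). With normexp Fa2h, Il33 and Car2 also passed (limma adjusted p = 0.0165, 0.0415 and 0.0415). At the high end Apod, a lipid carrier gene, had 0.34 ± 0.10.

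Per array, the median member of the mature list stood at -0.30, -0.28 and -0.21 relative to the wild-type mean in the transgenic samples, against 0.00, -0.03 and 0.04 in the wild-type samples. The same summary of the 9 factors was 0.03, 0.07 and 0.19 in the transgenic samples, against -0.09, 0.06 and 0.07 in the wild-type samples, where the groups overlapped. The difference between these summaries was not tested.

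Precursor and premyelinating genes lay on both sides of 0, with 9 of 22 above 0, a median of -0.02 and 0 calls by limma (1 higher and 1 lower with an unadjusted p under 0.05). Bcas1, a gene of newly formed myelinating oligodendrocytes, had levels of 6.30, 6.56 and 6.79 in the transgenic samples, against 5.95, 6.06 and 6.09 in the wild-type samples. Its groups did not overlap, and its log2 difference was 0.52 ± 0.14 (limma adjusted p = 0.617). C1ql1, a gene of precursors and of climbing fibre neurons, had -0.57 ± 0.21, Tmem100 -0.29 ± 0.14 (-0.17 within slide 2) and Bmp4, a growth factor gene, 0.19 ± 0.13 (0.817 each).

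Other transcription factors that act in the lineage lay close to 0. Of 34 tested, 14 were above 0 and 20 below, with a median of -0.03 and 0 calls, and none had an unadjusted limma p under 0.05. St18, a zinc finger gene, had a log2 difference of -0.28 ± 0.12 (-0.18 within slide 2), Sox9, an HMG-box gene of glial progenitors and astrocytes, -0.29 ± 0.13, Sox5 -0.30 ± 0.17 and the cell cycle factor gene E2f1 0.27 ± 0.14. Sox17 marked the high end with 0.44 ± 0.54, and its sign rested on wild-type replicate 1, at -0.17 where the other arrays read 1.496 to 1.820. Among 18 chromatin regulators 10 were above 0 and 8 below (median 0.01, 0 calls, and 2 with an unadjusted limma p under 0.05, both lower). Ezh2, the methyltransferase of Polycomb repressive complex 2, had levels of 0.01, 0.06 and 0.08 in the transgenic samples, against 0.43, 0.37 and 0.38 in the wild-type samples. Those groups were tight and well apart, with a difference of -0.34 ± 0.07 (limma adjusted p = 0.391). Crebbp, an acetyltransferase gene, had -0.23 ± 0.09, Yy1, a zinc finger gene, 0.20 ± 0.12 (0.09 within slide 2) and the deacetylase gene Hdac3 0.12 ± 0.07.

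Pathways that feed into the factors also gave 0 calls. Of 11 helix-loop-helix inhibitors and their relatives, which hold OLIG factors or differentiation in check, 4 were above 0 and 7 below (median -0.06). Hes5, a Notch target gene, had -0.44 ± 0.20, Id2 -0.14 ± 0.10, Hey2 -0.27 ± 0.21 and Id4 -0.12 ± 0.11 (-0.05 within slide 2), and none reached an unadjusted limma p under 0.05. The high end, Hes1 at 0.62 ± 0.79, rested on wild-type replicate 1, which read -5.49 where the other arrays read -3.32 to -2.57.

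Of 21 genes of the Wnt and TCF pathway, in which TCF7L2 acts, 10 were above 0 and 11 below (median -0.02). Lgr6, a receptor gene of the pathway, had -0.49 ± 0.19 (-0.31 within slide 2), and Tcf7l1, a relative of Tcf7l2, 0.26 ± 0.11. Notum, whose enzyme inactivates Wnt proteins, had 0.60 ± 0.33 (0.23 within slide 2), and Znrf3, which removes Wnt receptors, -0.14 ± 0.10. The transgenic levels of Tcf7l1 and Notum lay above every wild-type level, and Lgr6 was the one member with an unadjusted limma p under 0.05. Of 15 Hedgehog and ventral patterning genes, upstream of OLIG2, NKX2-2 and NKX6-2, 9 were above 0 and 6 below (median 0.04). Cdon, a Hedgehog co-receptor gene, had -0.27 ± 0.10, the ligand gene Shh -0.16 ± 0.08 and Pax6 -0.17 ± 0.10. Cdon had the only unadjusted limma p under 0.05 of that list.

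**Figure D4:**
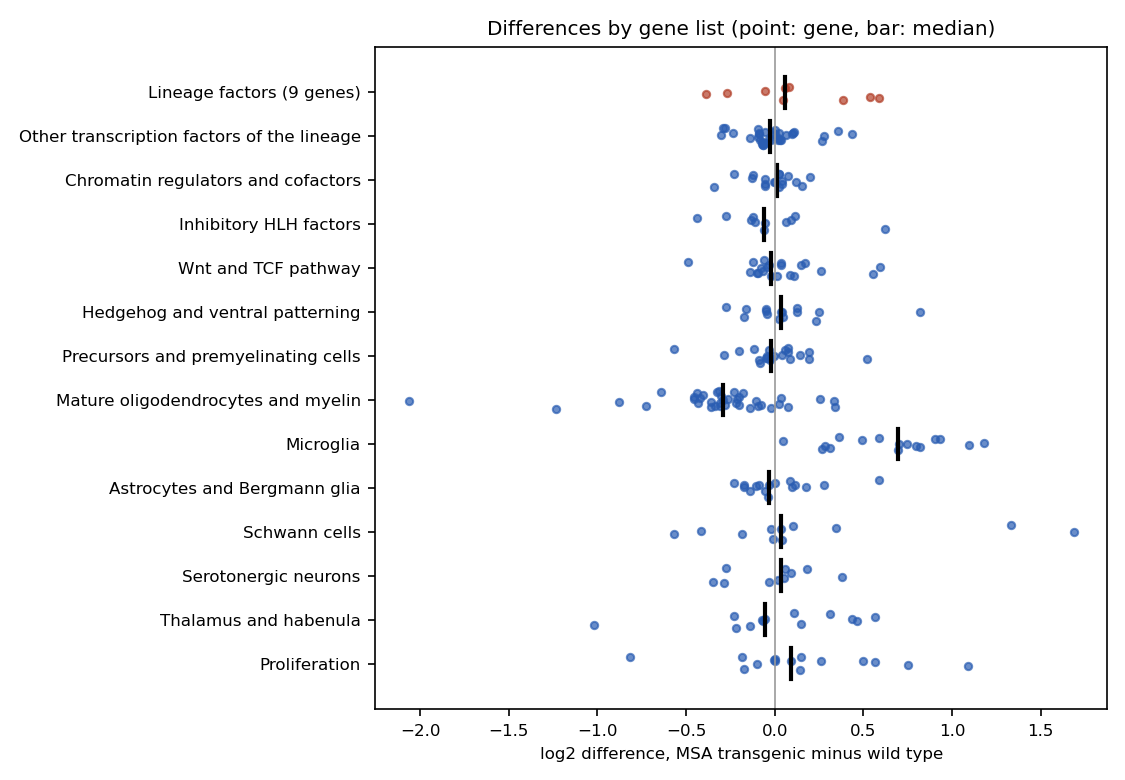
Log2 difference (x axis, MSA transgenic minus wild type) of each tested gene of the 9 lineage factors (red) and of the 13 other lists (blue), with the median of each list as a bar. The mature oligodendrocyte list lies to the left with a median of -0.29, the microglial list to the right with 0.70, and the 9 factors are spread on both sides of 0.

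Markers of other cell types in the dissection are set beside the members that those cells share. All 16 tested microglial genes were above 0 (median 0.70, 0 calls, 12 with an unadjusted limma p under 0.05), among them Cd68 (1.097 ± 0.104), Trem2 (0.75 ± 0.08), C1qc (0.90 ± 0.11) and Ly86 (0.69 ± 0.09). With normexp Cd68, Trem2 and C1qc passed the test (limma adjusted p = 0.0165, 0.0256 and 0.0415). P2ry12 and Fcrls marked the ends of the list with 0.05 ± 0.15 and 1.18 ± 0.51, or -0.08 and 0.75 within slide 2. The summed microglial level was 227 to 241 times the 75th percentile in the transgenic samples and 108 to 233 times in the wild-type samples. Relative to the wild-type mean, the median microglial gene stood at 0.60, 0.62 and 0.81 on the transgenic arrays. It stood at 0.02, -0.02 and 0.02 on the wild-type arrays. The sums, which weigh the brightest probes most, overlapped between genotypes, while these medians did not. The part of microglial RNA in the members' differences was not tested. Astrocyte and Bergmann glia genes, which matter because some astrocytes make OLIG2, had a median of -0.03, with 7 of 16 above 0 and 0 calls (1 with an unadjusted limma p under 0.05). The summed astrocyte level was 1033 to 1082 times the 75th percentile in the transgenic samples and 820 to 1154 times in the wild-type samples. Among these genes Gfap had 0.59 ± 0.11 (limma adjusted p = 0.277), Slc1a2 -0.23 ± 0.12 (-0.15 within slide 2), Slc4a4 -0.14 ± 0.08 and S100b -0.17 ± 0.10.

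Schwann cells share SOX10, and 11 of 15 of their genes were tested, with 6 above 0, 5 below, a median of 0.03 and 0 calls (4 with an unadjusted limma p under 0.05). Pmp2, Scn7a, Dhh and Cldn19 were too dim to be tested. Egr2, which microglia and neurons can also induce, had 1.33 ± 0.11 (limma adjusted p = 0.0522, and 0.33 with normexp), Pmp22, which oligodendrocytes also express, -0.42 ± 0.08 and Foxd3 -0.57 ± 0.12. The list's summed level was 13.2 to 14.2 times the 75th percentile in the transgenic samples and 15.8 to 17.1 times in the wild-type samples. Most of this sum is Pmp22, so it follows Pmp22 rather than the list. Pmp22 had a mean level of 3.05 in the transgenic samples, against 3.46 in the wild-type samples. The part of Schwann cell RNA in the Sox10 values was not tested.

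Serotonergic neurons share NKX2-2, and their 10 tested genes had a median of 0.04 with 6 above 0 and none with an unadjusted limma p under 0.05, while En1 did not pass the filter. En2 had -0.35 ± 0.18 (-0.16 within slide 2), Gata3 0.38 ± 0.28, Slc22a3 -0.28 ± 0.27 (-0.53 within slide 2) and Maob 0.05 ± 0.08. The summed level was 22.0 to 22.8 times the 75th percentile in the transgenic samples and 23.9 to 32.8 times in the wild-type samples. Most of this sum is En2, so it follows En2 rather than the list. En2 had levels of 4.17, 4.11 and 3.96 in the transgenic samples, against 4.80, 4.25 and 4.24 in the wild-type samples. The dissection takes in cerebellum, and these bulk values do not show which cells the En2 signal came from. The part of serotonergic RNA in the Nkx2-2 difference was not tested. Proliferation genes, read because precursors divide, had 10 of 15 above 0 with a median of 0.09 (-0.07 with normexp) and 0 calls (5 with an unadjusted limma p under 0.05). The values of several differed between the corrections, as with Nusap1 (1.09 ± 0.26, or -0.07 with normexp), Ube2c (0.50 ± 0.10, or 0.05) and Mki67 (0.56 ± 0.21, or 0.13), while Top2a had -0.82 ± 0.30 (-0.38 with normexp).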

How the data were processed

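Each deposited file holds linear intensity per spot, from which Feature Extraction 10.7.1.1 had taken the background, with positions on mm9, per the file headers. The submitters' processing notes give version 9.5.1.1. The authors' deposited value table, also intensity, matched a quantile normalization of the scanner signals (at least 99.94% of values within 0.01 log2) and served as an alternative. Here log2 signals were set relative to each array's 75th percentile, outlier-flagged and control spots were left out, and no spot was saturated. A probe was tested where every array of 1 or both genotypes had it well above background, and the brightest per gene was kept. Genotypes were compared with limma 3.58.1 (R 4.3.3) over 24932 genes, Benjamini-Hochberg adjusted. The fit was tested on simulated data. Members, lists and alternatives were chosen with earlier results of these data known. The named genes are the 9 factors, called genes and up to 4 genes with the smallest p per list, the ends of a list, and 3 genes most like Olig2 and Tcf7l2. The number of arrays limits the precision. Some genes that this rule names are not reported here.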

Additional observations from a re-analysis of the deposited data

How the results depend on the processing

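No alternative brought any of the 9 factors past the threshold. Olig2, Sox10, Myrf, Nkx2-2, Nkx6-2 and Tcf7l2 kept their direction under all alternatives, but several of these could not change it. The settings on the filter, the title digit and the intensity trend left these estimates as they were. Leaving out wild-type replicate 1 repeats the fit within slide 2. Sox10 fell to 0.003 without transgenic replicate 2, and the mean of the Myrf probes takes in the dim probe 2. The difference of Sox8 was 0.046 within slide 2 and 0.036 with the mean of its probes, and that of Zfp488 was -0.098 within slide 2 and -0.073 with array weights. Leaving out 1 sample gave -0.048 to 0.182 for Olig1, -0.184 to 0.113 for Sox8 and -0.098 to 0.184 for Zfp488. The cause of these reversals was not tested, beyond the probes averaged or samples left out.

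Over all genes 11 were called (9 higher, 2 lower), 29 with normexp (19 and 10), 6 with no filter, 23 with only probes above background on all 6 arrays, 7 within slide 2, 27 with an intensity trend, 95 with array weights (67 and 28) and 24 with probes averaged per gene. Leaving out 1 sample gave 0 to 7 calls by limma. The 0 came without transgenic replicate 2, where 1193 genes had an unadjusted p under 0.05. A block on the leading digit of the title number gave 11. No paired analysis was possible because the genotypes share no replicate number in the labels, and no label says that neighbouring title numbers belong together.

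Among list medians, the mature oligodendrocyte list was at -0.235 with probes averaged per gene, Hedgehog genes at -0.033 with normexp, and astrocyte genes at -0.014 with normexp and -0.008 with quantile normalization and with the authors' table. Thalamic genes were at 0.058 within slide 2 and 0.115 with array weights. Proliferation genes were at -0.069 with normexp, 0.005 with only probes above background on all 6 arrays and 0.161 within slide 2. Leaving out 1 sample gave -0.052 to -0.014 for other lineage factors, -0.061 to 0.036 for Wnt, -0.305 to -0.245 for mature oligodendrocyte, -0.055 to -0.017 for astrocyte, -0.088 to 0.108 for Schwann cell, -0.130 to 0.148 for serotonergic, -0.063 to 0.087 for thalamic and -0.005 to 0.161 for proliferation genes. Signal over background limits the dim probes, above all Myrf probe 2, Tcf7l2 probes 1 to 3 and Nkx2-2 probe 1.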
